A study of Mus musculus with 22 samples.

Results

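H3K27ac was measured at 7 genes of sterol and polyunsaturated fatty acid synthesis in Kupffer cells, macrophages that reside in liver sinusoids. The genes were *Hmgcs1*, *Sqle*, *Insig1*, *Srebf2*, *Fads1*, *Fads2* and *Elovl5*. They were chosen by name for their place in these pathways, with earlier results of these data known. Every window that the deposited annotation assigns to one of them as the nearest gene was taken. This gave 50 of 96381 windows of 1000 bp in the parental strains, at 7 of 17276 genes, and 101 of 217456 regions of 200 bp in the F1 hybrids.

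Kupffer cells were sorted from untreated males of 3 inbred strains, C57BL/6J, BALB/cJ and A/J, aged 8 to 12 weeks, with 3 H3K27ac ChIP–seq libraries each, and from 3 male CB6F1/J mice of the same age, the offspring of BALB/cJ and C57BL/6J parents. H3K27ac is an acetylation of histone H3 that marks active promoters and enhancers. Sonicated chromatin that was not immunoprecipitated (input) gave 3 libraries for A/J, 3 for BALB/cJ and 1 for C57BL/6J. The strains differ at variants across the whole genome and in the livers that the cells came from, so a difference between strains names neither a variant nor a cell, whereas both alleles of an F1 mouse share the same nuclei.

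Cells make cholesterol from acetyl-CoA through the mevalonate pathway, whose genes are driven by SREBP2, the product of *Srebf2*. When sterols are plentiful, INSIG proteins hold the SREBP2 precursor and its escort SCAP in the endoplasmic reticulum, and when sterols are scarce the precursor is cleaved and enters the nucleus. Long polyunsaturated fatty acids such as arachidonic acid, the source of eicosanoids, are made from dietary precursors by alternating desaturation, through FADS2 and then FADS1, and elongation, through ELOVL5. In Kupffer cells and other macrophages both pathways are tied to the liver X receptors, which respond to sterols and promote cholesterol export.

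Promoter sequences of 5 of the 7 genes were found in the RefSeq table for GRCm38.p6, the assembly behind mm10, and 4 are shown because the windows that cover them carried H3K27ac in every library. Each is the 250 bases before the start site, 5′ to 3′. Capitals mark TCACCCCA, the core of a sterol regulatory element, CCAAT, the box bound by NF-Y (ATTGG where it lies on the other strand), and CACGTG, an E-box. Each motif was searched on both strands, and the motifs were chosen after these sequences had been seen.
*Hmgcs1* promoter (chr13:119690101-119690350, + strand): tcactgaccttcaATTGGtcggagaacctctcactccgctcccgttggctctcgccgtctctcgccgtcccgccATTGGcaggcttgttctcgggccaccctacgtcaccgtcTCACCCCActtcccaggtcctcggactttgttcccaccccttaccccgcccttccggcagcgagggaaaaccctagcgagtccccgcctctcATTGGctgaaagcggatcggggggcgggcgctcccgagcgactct
*Srebf2* promoter (chr15:82147019-82147268, + strand): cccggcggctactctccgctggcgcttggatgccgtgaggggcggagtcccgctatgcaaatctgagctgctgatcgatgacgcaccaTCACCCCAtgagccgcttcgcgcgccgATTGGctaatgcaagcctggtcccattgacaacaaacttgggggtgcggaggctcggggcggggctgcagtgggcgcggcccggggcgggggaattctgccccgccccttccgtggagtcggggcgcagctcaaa
*Insig1* promoter (chr5:28071162-28071411, + strand): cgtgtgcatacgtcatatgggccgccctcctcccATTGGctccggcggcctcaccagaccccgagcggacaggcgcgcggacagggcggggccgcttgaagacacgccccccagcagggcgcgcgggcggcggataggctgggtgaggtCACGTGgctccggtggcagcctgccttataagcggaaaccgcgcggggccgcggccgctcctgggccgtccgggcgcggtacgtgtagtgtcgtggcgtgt
*Elovl5* promoter (chr9:77917115-77917364, + strand): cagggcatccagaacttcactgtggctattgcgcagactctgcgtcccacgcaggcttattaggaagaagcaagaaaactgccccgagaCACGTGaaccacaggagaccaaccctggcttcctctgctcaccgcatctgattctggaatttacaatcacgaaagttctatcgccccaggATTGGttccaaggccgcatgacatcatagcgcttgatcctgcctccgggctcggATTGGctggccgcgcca

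TCACCCCA was found in 2 of the 5 promoters searched, with its first base at -137 of *Hmgcs1* and -162 of *Srebf2*, against 1.34% of 32851 promoters of the same length. CCAAT was found in 4 of 5, in *Hmgcs1* 3 times (-237, -176 and -45, each on the other strand, as were all CCAAT matches), in *Elovl5* at -71 and -17, in *Insig1* at -216 and in *Srebf2* at -135, against 33.8% of all promoters. CACGTG was found at -101 of *Insig1* and -161 of *Elovl5*, against 6.02%. The *Fads2* promoter held neither the first motif, CCAAT nor CACGTG in this stretch. These are matches of letters and not evidence that a factor was bound.

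At *Fads1*, 3 of the 4 regions whose reads could be assigned to an allele in the F1 hybrids are shown, and their allelic values are given below. They are read from GRCm38.p6, which is the C57BL/6J sequence, and capitals mark the same motifs, GAGGAA, the core of the PU.1 motif, and TGANTCA, the AP-1 motif.
*Fads1* region at -9180 (chr19:10173608-10173808, + strand): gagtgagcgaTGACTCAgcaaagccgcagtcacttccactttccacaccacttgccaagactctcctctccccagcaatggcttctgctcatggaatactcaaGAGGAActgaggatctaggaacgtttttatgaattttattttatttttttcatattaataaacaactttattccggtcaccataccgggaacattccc
*Fads1* region at -11, up to the first exon (chr19:10182777-10182887, + strand): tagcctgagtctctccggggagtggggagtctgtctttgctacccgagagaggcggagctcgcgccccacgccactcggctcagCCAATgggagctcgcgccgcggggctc
*Fads1* region at 572, intron 1 (chr19:10183360-10183560, + strand): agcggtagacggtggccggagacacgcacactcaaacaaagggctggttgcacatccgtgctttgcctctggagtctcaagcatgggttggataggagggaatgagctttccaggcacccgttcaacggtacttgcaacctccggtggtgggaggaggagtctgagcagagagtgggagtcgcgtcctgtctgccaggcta

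The region at -9180 held an AP-1 motif and GAGGAA, present in 14 and 32 of the 101 regions of these genes and in 13.6% and 29.3% of 217196 regions overall. The region at the start site held CCAAT, and the region in intron 1 held none of these motifs. The DR4 motif, which liver X receptors bind with RXR, was in 0 of the 101 regions and in 0.0258% of all regions. Only exact matches were counted, and these are so rare that 0 of 101 cannot show whether such sites are absent.

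Totals in windows ran from 2291426 to 12980348 per parental H3K27ac library and from 583518 to 1916588 per input library, with replicate 2 the shallowest H3K27ac library of each strain. Counts below are TMM-normalised to the mean library size. Markers with a window at the start site mostly followed the label. Of 13 symbols of Kupffer cell and macrophage markers, among which *Adgre1* and *Emr1* name the same gene, 12 had a window within 1000 bp of the start site. Each of these had a mean count over 16, with a median of the means of 131. Such a window was present for 0 of 6 hepatocyte markers and 0 of 10 lymphocyte and dendritic cell markers. Windows are centred on ATAC-seq peaks of Kupffer cells, so a missing window is no measurement of H3K27ac at that start site. The markers of sinusoidal endothelium (2 of 6 with a window) and of stellate cells (1 of 6) lay at or under 16, and the 2 windows of monocyte and neutrophil markers summed to 16.2 to 26.5 in A/J, 33.8 to 68.7 in BALB/cJ and 17.6 to 41.9 in C57BL/6J. Away from start sites some windows of other cells' markers did differ, at an adjusted p under 0.05 and more than 2-fold (called windows). This rule was met by 3.63% of all windows when BALB/cJ was set beside A/J. It was met by 7.09% with C57BL/6J set beside A/J, and by 8.56% with C57BL/6J set beside BALB/cJ. Hepatocyte markers had 10 tested windows, of which 2 were lower in A/J than in BALB/cJ and 2 lower than in C57BL/6J, at 1 gene each time. The 1 tested stellate cell window was higher in C57BL/6J than in A/J and BALB/cJ (log2 -2.30 for A/J over C57BL/6J and -2.57 for BALB/cJ over C57BL/6J). Of 10 lymphocyte and dendritic cell windows, 2 (at 1 gene) were higher in BALB/cJ and 1 in C57BL/6J than in A/J. Of 20 endothelial windows 1 was higher in A/J than in C57BL/6J. Of 16 monocyte and neutrophil windows, 1 was higher in C57BL/6J than in A/J, and between BALB/cJ and C57BL/6J 1 was higher and 2 were lower in BALB/cJ. The part of these cells in the results below was not tested.

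At their start sites the 7 genes differed widely in H3K27ac. *Insig1* had the highest count, *Elovl5* and *Srebf2* came next, *Hmgcs1* and *Fads1* were lower, and *Sqle* and *Fads2* had 0 to 14.4 normalised counts in all libraries. Among all windows annotated as promoters of protein-coding genes, *Insig1* stood at percentile 96.1, *Elovl5* at 69.8, *Srebf2* at 66.0, *Hmgcs1* at 43.0, *Fads1* at 32.6, *Sqle* at 9.92 and *Fads2* at 2.28. All windows have the same length, so these levels can be compared between genes. In libraries from a cell population, fewer acetylated cells and less acetylation per cell cannot be told apart.

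**Figure D1:**
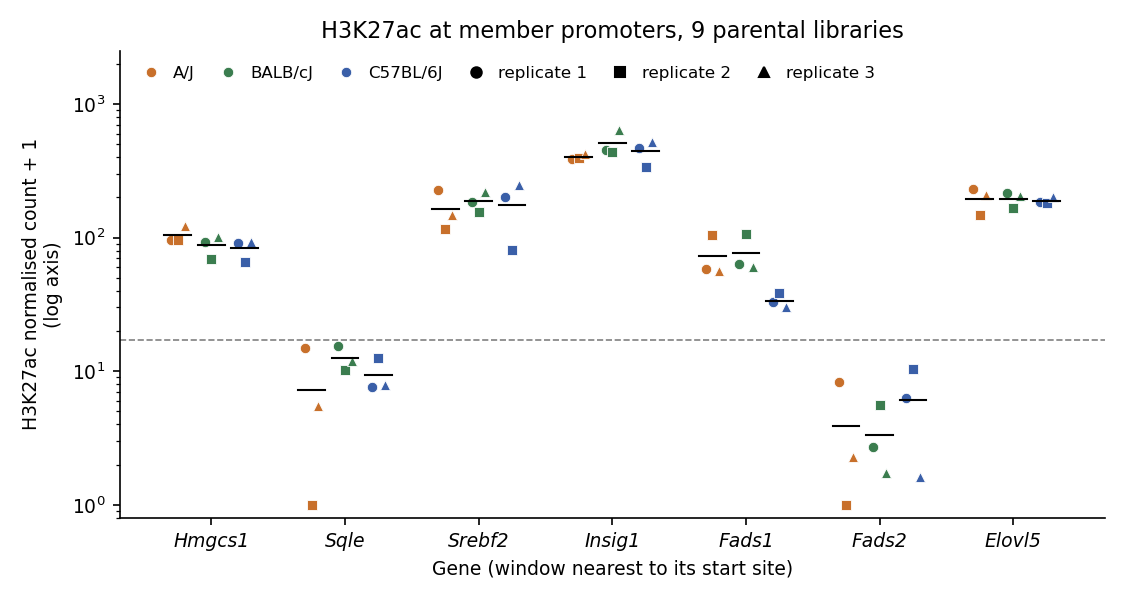
Normalised H3K27ac count plus 1 (log axis) in the window at the start site of each of the 7 genes, for the 3 libraries of each strain, with a bar at the mean. Circles, squares and triangles are replicates 1, 2 and 3, and the dashed line is the mean count of 16 below which windows were not tested, with 1 added. *Insig1* lies at 335.3 or more before 1 is added in all 9 libraries, *Sqle* and *Fads2* lie below the line in all 9, and the C57BL/6J points of *Fads1* lie below those of the other strains.

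*Hmgcs1* encodes the cytosolic synthase that forms HMG-CoA at the entry to the mevalonate pathway. In its promoter window (chr13:119689711-119690711) the count was 94.2, 94.9 and 120.3 in A/J, 91.2, 68.7 and 100.8 in BALB/cJ, and for C57BL/6J 90.6, 65.2 and 92.0. The A/J libraries were all above those of C57BL/6J and overlapped those of BALB/cJ, and the largest of the 3 differences, A/J over C57BL/6J, was 0.31 on the log2 scale (SE 0.25, adjusted p = 0.562 from edgeR). A pair of overlapping windows 22916 and 23292 bp downstream, inside an intron of another transcript, had lower p-values. At 23292 bp the count was 27.4 ± 4.60 in A/J, 37.5 ± 11.2 in BALB/cJ, and for C57BL/6J 19.7 ± 6.71 (SD, n = 3 each), and BALB/cJ was above C57BL/6J by 0.84 on the log2 scale, which did not pass the correction (SE 0.37, adjusted p = 0.168 from edgeR).

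*Sqle* encodes squalene epoxidase, which oxidises squalene before it is folded into the sterol rings. Its 1 window, at the promoter (chr15:59314495-59315495), held 14.0, 0.0 and 4.53 in A/J, 14.4, 9.16 and 11.0 in BALB/cJ, and for C57BL/6J 6.66, 11.6 and 6.93. The mean over all libraries, 8.69, was under the filter and the window was not tested. In CPM, which scales each library to its total in windows, H3K27ac was 0.833 in A/J, 1.58 in BALB/cJ, and for C57BL/6J 1.18, and input was 10.5, 14 and 15.4. H3K27ac was thus a smaller share than input here in each strain; since H3K27ac gathers in the strongest windows, a share below input does not by itself show that acetylation was absent.

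*Srebf2* had 7 windows, of which 3 around the start site were tested. The promoter window (chr15:82146640-82147640) held 226.0, 115.7 and 147.5 in A/J, 182.4, 155.7 and 219.8 in BALB/cJ, and for C57BL/6J 198.5, 79.2 and 246.9. Replicate 2 was the lowest library in each strain, and the 3 strains overlapped throughout. The largest difference at *Srebf2* was at 522 bp, in intron 1, where A/J (74.8 ± 17.3) was below BALB/cJ (109 ± 23.8) by a log2 fold change of -0.52 (SE 0.31, adjusted p = 0.494 from edgeR; SD, n = 3 each). Over the 3 tested windows and 3 comparisons, the adjusted p was 0.494 or higher.

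*Insig1*, whose product retains SREBP in the endoplasmic reticulum and whose own gene is an SREBP target, had the highest promoter of the 7. The promoter window (chr5:28070718-28071718) held 388.7, 394.5 and 424.3 in A/J, 452.5, 434.9 and 632.4 in BALB/cJ, and for C57BL/6J 465.0, 335.3 and 521.5. All 3 A/J libraries were below all 3 BALB/cJ libraries, by -0.34 on the log2 scale (SE 0.23, adjusted p = 0.596 from edgeR). Of its 8 tested windows 7 were lower in A/J than in BALB/cJ, in 3 of them without overlap between the strains, as in 10.2% of all windows. Several of the 8 windows lie over each other and share reads, so they are not separate observations. Those at -194 and 560 bp are such a pair, and both are among the 3. All 8 were also higher in BALB/cJ than in C57BL/6J, 0 of them without overlap between the strains. The lowest p was at -33002 bp in an upstream cluster, where A/J held 33.1, 44.5 and 48.5 and BALB/cJ 50.7, 71.0 and 73.8, a log2 fold change of -0.63 (SE 0.31, adjusted p = 0.37 from edgeR). Summed over 10 windows that do not overlap, A/J held 649.9, 714.8 and 779.4, BALB/cJ 803.7, 820.4 and 1063, and C57BL/6J 768.1, 644.5 and 911.6. The A/J sum was lower than that of BALB/cJ by a log2 fold change of -0.33 (SE 0.16, adjusted p = 0.326 from edgeR), and this passed when the replicate number was a block (adjusted p = 0.0272), as 12.8% of all genes did.

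*Elovl5* had the highest sum among these genes, with means of 1302 in A/J, 1361 in BALB/cJ, and for C57BL/6J 1356 over 13 windows that do not overlap, and its promoter was not its strongest window. The promoter window (chr9:77916721-77917721) held 231.2, 145.3 and 208.3 in A/J, 214.4, 164.8 and 204.5 in BALB/cJ, and for C57BL/6J 183.9, 179.3 and 199.0. A cluster of 4 overlapping windows at -7215 to -5265 bp, annotated as intergenic, had mean counts from 279.4 to 631.8. Its highest window (chr9:77910249-77911249, at -6616 bp) stood at percentile 99.5 of the promoter windows of protein-coding genes. That window held 641.2, 533.9 and 622.9 in A/J, 729.5, 512.7 and 791.6 in BALB/cJ, and for C57BL/6J 704.9, 353.9 and 795.4, so that the strains overlapped and the spread within C57BL/6J was the widest. The lowest p of *Elovl5* was at 1948 bp in intron 1, a weak window with 25.8, 32.6 and 17.5 in A/J, 12.7, 9.16 and 13.9 in BALB/cJ, and for C57BL/6J 17.3, 11.6 and 5.67. A/J was above C57BL/6J there by 1.16 on the log2 scale (SE 0.47, adjusted p = 0.153 from edgeR), and passed with a block for the replicate number (1.15, adjusted p = 0.0488). The mean count of this window, 16.24, was just over the filter. It was tested in 5 of the 9 fits with 1 library left out, and passed in 1 of 12 alternative fits.

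*Fads2*, which encodes the desaturase of the first step from linoleic and alpha-linolenic acid, had no window above the filter. Its promoter window (chr19:10101353-10102353) held 7.36, 0.0 and 1.29 in A/J, 1.69, 4.58 and 0.73 in BALB/cJ, and for C57BL/6J 5.33, 9.31 and 0.63. The window in intron 1 held 0.0 to 14.0 over the 9 libraries. In CPM, H3K27ac in the promoter window was 0.683 in C57BL/6J, 0.391 in BALB/cJ, with 0.392 in A/J, whereas input was 9.43, 8 and 7.5. *Fads2* lies beside *Fads1* on chromosome 19, and its promoter was far below the promoter of that neighbour.

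*Fads1* encodes the desaturase that makes arachidonic acid from dihomo-gamma-linolenic acid, and it was the only one of the 7 genes with windows past the test when no replicate block was used. H3K27ac at its start site and in the first intron was lower in C57BL/6J than in A/J and in BALB/cJ. Between A/J and BALB/cJ the log2 fold changes of its 6 tested windows were -0.31 to -0.07, with adjusted p-values of 0.763 to 0.972 from edgeR, and at -8862 bp alone these strains did not overlap. In the promoter window (chr19:10182441-10183441) the count was 57.4, 103.8 and 55.0 in A/J, 62.5, 105.3 and 59.1 in BALB/cJ, and for C57BL/6J 32.0, 37.3 and 29.0. Every C57BL/6J library was below every library of the other strains, and replicate 2 was the highest in each strain. The log2 fold change was 1.08 for A/J over C57BL/6J (SE 0.32, adjusted p = 0.0357 from edgeR) and 1.18 for BALB/cJ over C57BL/6J (SE 0.32, adjusted p = 0.0151). With 1 library left out, the A/J call was lost without A/J replicate 2 (0.81, adjusted p = 0.13) or C57BL/6J replicate 1 or 3 (1.08 and 0.98, adjusted p = 0.11 and 0.204), and the BALB/cJ call without BALB/cJ replicate 2 (0.93, adjusted p = 0.069) or C57BL/6J replicate 1 or 3 (1.19 and 1.09, adjusted p = 0.0574 and 0.113).

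In intron 1, the window at 625 bp (chr19:10183013-10184013) held 67.0, 112.7 and 68.6 in A/J, 54.9, 109.9 and 90.5 in BALB/cJ, and for C57BL/6J 33.3, 41.9 and 15.1. C57BL/6J replicate 3, the deepest library, was the lowest, and the strain means of 82.8, 85.1 and 30.1 stood 2.89-fold and 3.04-fold above C57BL/6J in the fit (log2 1.53 and 1.60, SE 0.36 each, adjusted p = 0.00622 and 0.0034 from edgeR). The next window, at 1517 bp (chr19:10183905-10184905), held 11.8, 41.5 and 28.5 in A/J, 15.2, 32.0 and 32.9 in BALB/cJ, and for C57BL/6J 4.00, 4.66 and 0.0. The C57BL/6J values rest on 5 reads in all, so the fitted log2 fold changes of 3.59 and 3.67 (SE 0.74 each, adjusted p = 0.00191 and 0.00122 from edgeR) depend on the prior count for their size. Without C57BL/6J replicate 3 both calls at 625 bp were lost (1.09 and 1.16, adjusted p = 0.12 and 0.0716), and those at 1517 bp were kept. These 3 windows overlap their neighbours and share reads.

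Another group of *Fads1* windows lay upstream, annotated as intergenic. At -9281 bp, the highest of the 3 overlapping windows tested there, the count was 67.7, 86.0 and 76.3 in A/J, 81.9, 84.7 and 80.3 in BALB/cJ, and for C57BL/6J 36.0, 60.5 and 48.5. The C57BL/6J libraries were again below all others. BALB/cJ was above C57BL/6J by 0.79 on the log2 scale (SE 0.26, adjusted p = 0.0555 from edgeR, or adjusted p = 0.00781 with the block) and A/J by 0.67 (SE 0.27, adjusted p = 0.142, or adjusted p = 0.0337 with the block). At -8862 bp the count was 31.6 ± 2.90 in A/J, 39.6 ± 4.88 in BALB/cJ, and for C57BL/6J 17.2 ± 1.33 (SD, n = 3 each), and the difference of BALB/cJ from C57BL/6J passed (log2 1.21, SE 0.34, adjusted p = 0.019 from edgeR), though not without BALB/cJ replicate 1 (adjusted p = 0.099) or C57BL/6J replicate 1 or 3 (adjusted p = 0.0752 and 0.0964). The 2 windows of *Fads1* that were not tested, at -10914 and -5591 bp, had mean counts of 5.66 to 18.6 in the strains.

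**Figure D2:**
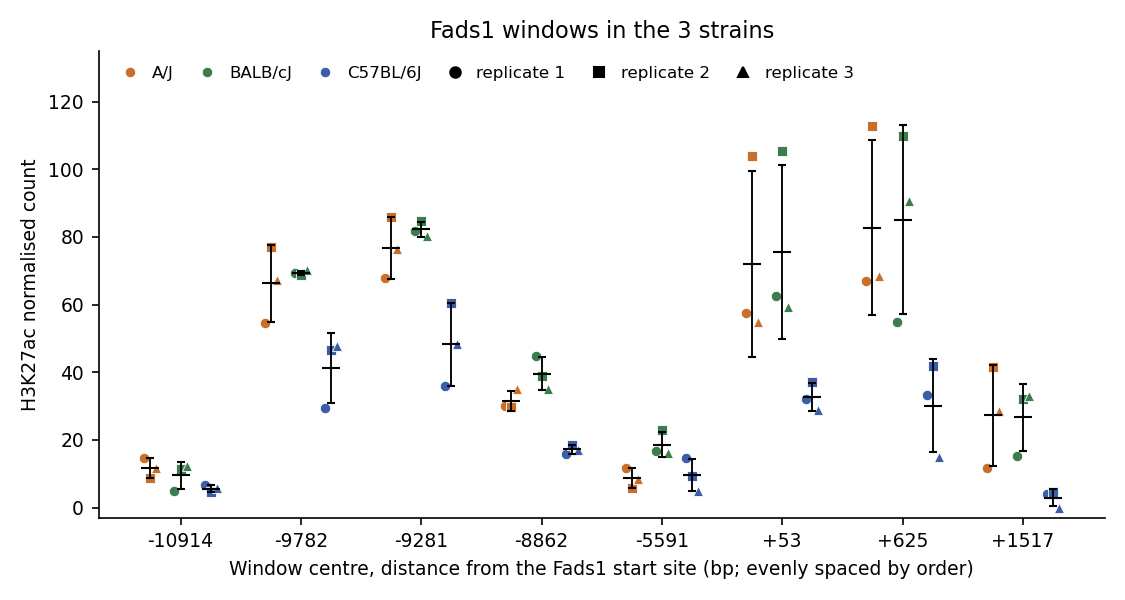
Normalised H3K27ac count of each library in the 8 *Fads1* windows, ordered by distance of the window centre from the start site, with the mean and SD of 3 libraries per strain. Circles, squares and triangles are replicates 1, 2 and 3. In each of the 6 windows that were tested (all but -10914 and -5591 bp) the 3 C57BL/6J points lie below the 6 points of A/J and BALB/cJ, and at 1517 bp C57BL/6J replicate 3 is at 0.

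Summed over 5 windows that do not overlap, *Fads1* held 150.7, 243.3 and 169.5 in A/J, 170.3, 244 and 185.3 in BALB/cJ, and for C57BL/6J 87.6, 107 and 87.3. The lowest value outside C57BL/6J was thus above the highest within it. The sum in BALB/cJ was 2.13-fold that of C57BL/6J (log2 1.09, SE 0.22, adjusted p = 0.00185 from edgeR) and the sum in A/J 1.96-fold (log2 0.97, SE 0.22, adjusted p = 0.00586). Of the 5 genes with enough counts for this test, 0, 0 and 1 were called at 2-fold between A/J and BALB/cJ, A/J and C57BL/6J, and BALB/cJ and C57BL/6J, against 2.50%, 4.60% and 5.29% of 14056 genes. At any size they were 0, 1 and 1, against 4.33%, 8.31% and 10.6%. Without BALB/cJ replicate 2 the log2 fold change over C57BL/6J was 0.96, under 2-fold, and both sums kept an adjusted p under 0.05 in all 17 alternative fits of each comparison.

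At *Fads1* input was not lowest in C57BL/6J. In the promoter window it was 9.62 CPM in A/J (95% exact Poisson interval 6.66 to 13.4), 13.8 in BALB/cJ (9.78 to 19) and 25.7 in the 1 C57BL/6J library (14.4 to 42.4), and at 625 bp it was 10.7, 12.9 and 14.6. At 1517 bp input was 5.37 in A/J, 8.73 in BALB/cJ and, on 4 counts, 6.85 in C57BL/6J (1.87 to 17.6), there below BALB/cJ. Intervals here and below cover counting error only. The Kupffer cell markers summed to 1583 to 2450 in C57BL/6J, 1439 to 1697 in A/J and 1621 to 1864 in BALB/cJ. The lowest and highest sums of C57BL/6J were above those of A/J, whereas the lowest sum of BALB/cJ was above that of C57BL/6J. Of 185 tested windows of these markers, 14 were called with more signal in C57BL/6J and 4 with more in A/J. With BALB/cJ as the other strain, 21 had more signal in C57BL/6J and 5 had less. Calls thus made up 9.73% and 14.1% of the list, beside 7.09% and 8.56% of all windows. The 2 calls separating A/J from BALB/cJ were both higher in A/J. The part of cell composition in the *Fads1* difference was not tested. Of the windows beside *Fads1*, the one at 5887 bp, in intron 5 but nearest to *Mir6993*, held 85.8 in A/J, 67.2 in BALB/cJ, and for C57BL/6J 43.5, and neither A/J (log2 0.90, SE 0.29, adjusted p = 0.0559 from edgeR) nor BALB/cJ (0.60, SE 0.29, adjusted p = 0.232) passed against C57BL/6J. Farther along, at 8055 and 8539 bp and at the promoters of *Fen1* and *Tmem258*, the log2 fold changes against C57BL/6J were 0.18 to 0.31 (SE 0.23 to 0.24).

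Across all genes, 31 of the 50 windows had a mean count over 16 and were tested: 11 of 16 for *Elovl5*, 8 of 13 for *Insig1*, 6 of 8 for *Fads1*, 3 of 7 for *Srebf2*, 3 of 3 for *Hmgcs1*, 0 of 1 for *Sqle* and 0 of 2 for *Fads2*. A window was called at an adjusted p under 0.05 and more than 2-fold. Between A/J and BALB/cJ 0 of the 31 were called by edgeR and by DESeq2, where 3.63% of 60387 windows were called, and 1 had an unadjusted p under 0.05, where 14.1% did. In the other comparisons 7 and 8 had one, where 19.3% and 22.3% did. Between A/J and C57BL/6J 3 of 31 were called, or 9.68%, against 7.09% of all windows. Between BALB/cJ and C57BL/6J 4 of 31 were called, or 12.9%, against 8.56%. These shares lie near those of all windows and are no result about the genes as a set. Every call lay at *Fads1* and was higher than in C57BL/6J.

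The number of calls moved with single C57BL/6J libraries. Without C57BL/6J replicate 3, 1 window remained called in each comparison, and without C57BL/6J replicate 1, 2 were called for BALB/cJ over C57BL/6J. The window at 1517 bp passed in the 15 alternative fits of each comparison that gave it an adjusted p, where the other called *Fads1* windows had 16. Its mean count of 18.95 exceeded the filter only through A/J (27.3) and BALB/cJ (26.7), with 2.89 in C57BL/6J. That it was tested at all thus depended on the strains where it was high. At any size, 0, 3 and 4 windows had an adjusted p under 0.05 in the 3 comparisons, where 4.02%, 8.35% and 10.8% of all windows did. A block for the replicate number gave 2, 5 and 6, where 10.7%, 18.0% and 21.5% did. The block added *Elovl5* at -7215 bp and *Insig1* at -33589 bp between A/J and BALB/cJ, both lower in A/J (adjusted p = 0.0399 and 0.0444).

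The 25 tested windows outside *Fads1* had log2 fold changes of -0.69 to 0.93 for A/J over BALB/cJ, -0.44 to 1.16 for A/J over C57BL/6J and -0.26 to 0.85 for BALB/cJ over C57BL/6J. Over all 31 the medians were -0.17, 0.03 and 0.20, and over all windows tested 0.01, -0.01 and -0.01. Without overlap between the strains were 6, 8 and 8 of the 31, against 19.1%, 22.0% and 24.9% of all windows, and in each comparison with C57BL/6J 6 of the 8 were *Fads1* windows, all lower in C57BL/6J. Both comparisons with C57BL/6J share its 3 libraries. Summed per gene, *Hmgcs1*, *Insig1*, *Srebf2* and *Elovl5* had adjusted p-values of 0.326 to 0.997 in the 3 comparisons.

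**Figure D3:**
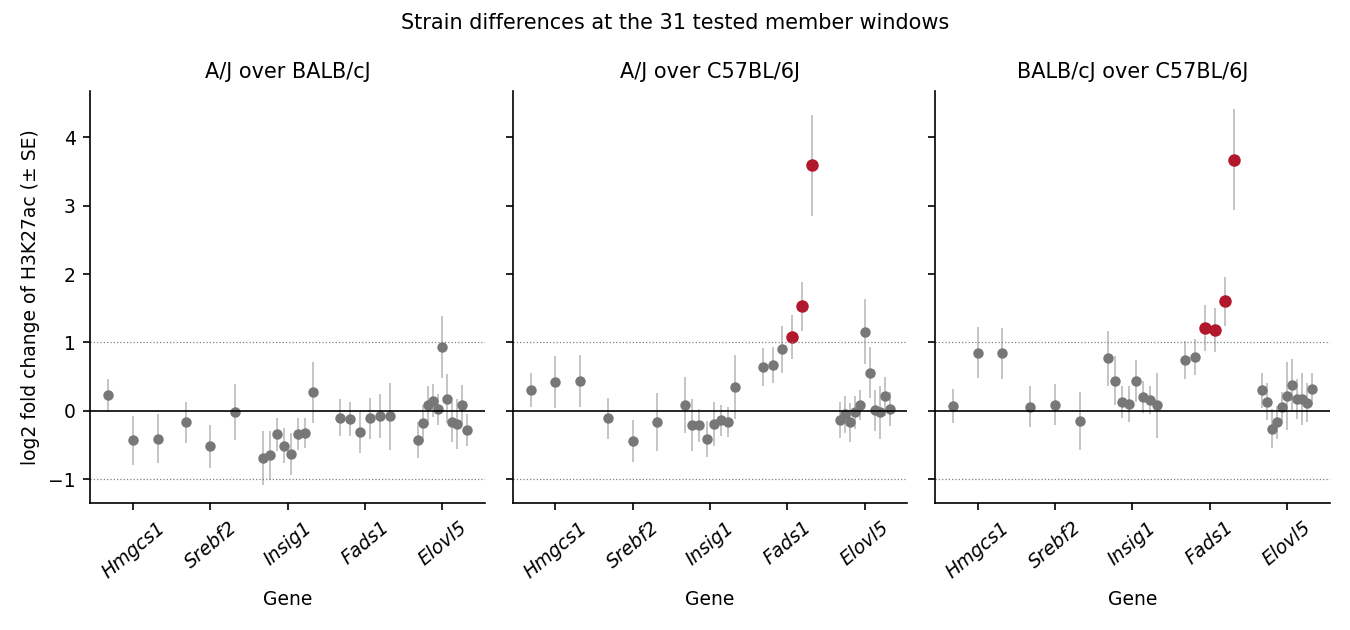
Log2 fold change of the 31 tested windows of 5 genes in each of the 3 strain comparisons, with bars of 1 SE and dotted lines at 2-fold. Red points are windows called at an adjusted p under 0.05 and more than 2-fold. All red points are *Fads1* windows, 0, 3 and 4 in the 3 panels, and lie on the side away from C57BL/6J.

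The F1 hybrids ask whether the difference between BALB/cJ and C57BL/6J is seen between their alleles within the same nuclei. Of the 101 regions of these genes, 19 (18.8%, against 19.1% of all regions) had any read that spans a variant: 8 at *Elovl5*, 6 at *Insig1*, 4 at *Fads1*, 1 at *Srebf2* and 0 at *Hmgcs1*, *Sqle* and *Fads2*. Reads on the allele are few, and 0 of the 19 passed the mean count of 16 that the fit required, where 6.54% of 4467 regions were called. Without that filter 0 of 19 had an adjusted p under 0.05 by edgeR, where 1.31% of 39396 regions did, and 1, *Insig1* at -68199 bp with 8 reads from 1 animal, had an unadjusted p under 0.05, where 7.22% did. The upstream cluster of *Elovl5*, the highest in the parental strains, had no read that spans a variant, and neither had the promoters of *Hmgcs1*, *Srebf2*, *Insig1* and *Elovl5* shown above.

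At *Fads1* the BALB/cJ allele had more reads than the C57BL/6J allele in all 3 animals. Summed over its 4 regions, 3 of them described here one by one, a sum chosen after seeing the data, the BALB/cJ allele held 20.0, 49.0 and 48.5 and the C57BL/6J allele 4.0, 34.5 and 23.5 in animals 1 to 3. The BALB/cJ share was 65.5%, against 48.8% over all regions. The log2 fold change was 1.03 (SE 0.45, adjusted p = 0.199 from edgeR) and with the animal as a block 1.11 (adjusted p = 0.0982), so it did not pass the correction, where 8.82% of 3073 genes did, or 11.6% with the block. A sign test on 3 animals cannot go below a two-sided exact p = 0.25.

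At 572 bp in intron 1 the BALB/cJ allele held 12.5, 10.0 and 9.5 and the C57BL/6J allele 2.5, 3.5 and 3.0, a share of 78.0% (95% exact binomial interval 62.4 to 89.4). At the start site the counts were 6.0, 1.0 and 6.5 against 0.0, 1.5 and 1.0, a share of 84.4% (61.7 to 98.4), with animal 2 the other way. Intervals of shares, here and below, were computed on sums rounded to whole numbers, and the shares on unrounded sums. At the start site this rounding shifts the interval toward the BALB/cJ allele. At -9180 bp they were equal on both alleles in each animal, at 0.0, 13.5 and 10.0. The fit without the filter gave a log2 fold change of 1.91 at 572 bp (SE 0.99, adjusted p = 0.687 from edgeR) and an adjusted p of 0.687 or higher at the other 2.

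**Figure D4:**
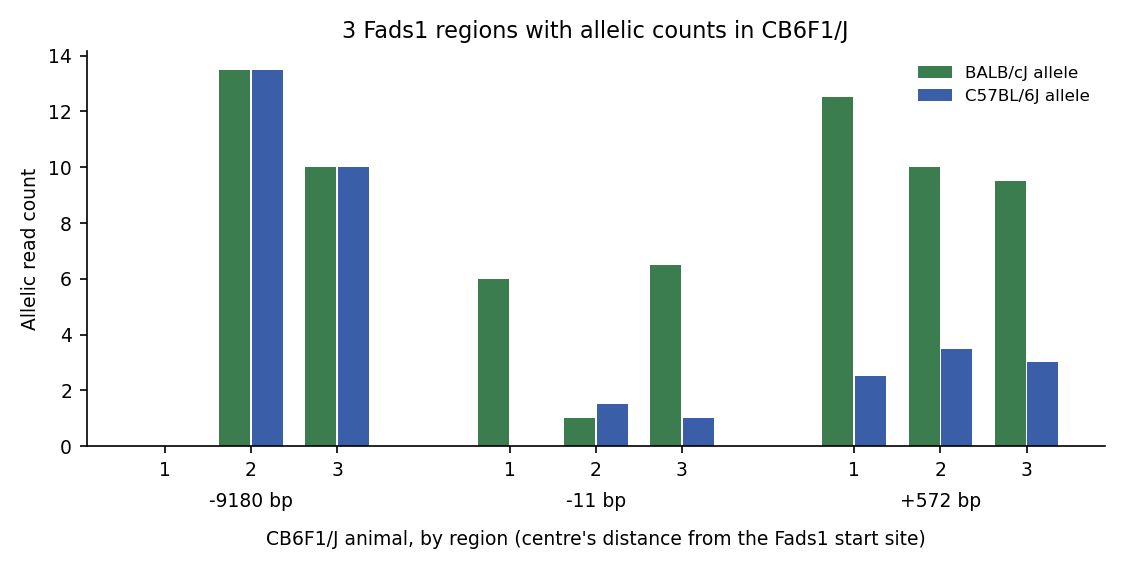
Reads assigned to the BALB/cJ allele (green) and the C57BL/6J allele (blue) in each of 3 CB6F1/J animals at 3 *Fads1* regions with such reads, labelled by distance from the start site. The green bar is higher in all 3 animals at 572 bp, and at -9180 bp both bars are equal in each animal.

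The other genes had few allelic reads. *Elovl5* held 21, 27 and 31.5 reads on the BALB/cJ allele and 19.5, 36.0 and 21.5 on the C57BL/6J allele, a share of 50.8% (log2 0.12, SE 0.41, adjusted p = 0.949 from edgeR), all at intronic regions. Its region with the most reads, at 42595 bp in intron 2, had 7.0, 9.5 and 10.5 against 7.0, 4.5 and 4.0, a share of 63.5% (46.7 to 77.0). *Insig1* held 14.5, 13.0 and 8.5 against 2, 31 and 6.5, a share of 47.7%, higher on the BALB/cJ allele in 2 of 3 animals. Its region with the most reads, at -67407 bp, had 1.0, 6.5 and 2.5 against 0.0, 14.5 and 3.0, a share of 36.4% (18.6 to 55.9). Both intervals include equal shares. *Srebf2* held 4 against 1.5, all in animal 2.

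The difference between strains was set against the difference between alleles in 1 fit. The *Fads1* window at -9281 bp was the one window of these genes with enough counts in both, and there the strain difference exceeded the allele difference by 0.24 on the log2 scale (SE 0.65, adjusted p = 0.941 from edgeR), where 2.12% of 5232 windows passed. Its allelic reads include those of the region at -9180 bp, equal on both alleles in each animal. How these equal counts arose was not tested, and they make the allele difference of this window smaller. Without the filter on counts, 15 windows could be compared and 0 passed by edgeR, against 0.998% of 22038, with 1 unadjusted p under 0.05 (*Elovl5* at 45651 bp, on 6 allelic reads). At *Fads1* the difference of differences was -0.37 (SE 0.80) at 625 bp and -1.04 (SE 1.11) at 53 bp. At -8862 bp, where each allele held 23.5 reads, it was 1.12 (SE 0.83), with the larger difference between strains. That value rests on the equal counts of the region at -9180 bp alone. A departure of the strain difference from the allele difference was not detectable at this depth.

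The other genes of these pathways were taken from lists of enzymes and regulators. Of 35 tested windows of cholesterol synthesis enzymes (19 of 22 genes had a window), 2 were higher in A/J and 1 in BALB/cJ, 0 were called between A/J and C57BL/6J by edgeR (5 at an unadjusted p under 0.05), and 1 was higher in C57BL/6J than in BALB/cJ, or 2 with the block. In the 3 comparisons 8.57%, 0% and 2.86% of these windows were called, against 3.63%, 7.09% and 8.56% of all windows. The list's medians in the 3 comparisons were -0.07, -0.03 and 0.01, near those of all windows. The calls were at *Lbr*, a sterol reductase of the nuclear envelope, where an intergenic window at -18878 bp held 122 ± 25.6 in A/J, 33.9 ± 6.70 in BALB/cJ, and for C57BL/6J 75.6 ± 10.8 (log2 1.84 for A/J over BALB/cJ, SE 0.27, adjusted p = 7.49e-05 from edgeR), and at the promoter of *Sc5d*, a sterol desaturase, with 43.1 ± 21.9, 102 ± 25.7 and 74.4 ± 17 (log2 -1.12, SE 0.30, adjusted p = 0.0311).

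Of 66 tested windows of SREBP regulators and sterol uptake genes (12 of 13 with a window; medians -0.06, 0.05 and 0.04), 1 was higher in BALB/cJ than in A/J, 2 were higher in C57BL/6J than in A/J (with the block also 2 higher in A/J), and 5 were higher in BALB/cJ than in C57BL/6J. These are 1.52%, 3.03% and 7.58% of the list's windows, each below the share of all windows (3.63%, 7.09% and 8.56%). *Insig2*, the other INSIG gene, was low in A/J in an intron 1 window at -1557 bp, with 9.05 ± 2.89 against 52.3 ± 5.96 in BALB/cJ, and for C57BL/6J 44.1 ± 2.54 (log2 -2.40 and -2.13, adjusted p = 4.21e-05 and 0.000118 from edgeR; SD, n = 3 each). *Mylip*, a ubiquitin ligase induced by liver X receptors, at -124748 bp, and *Npc1*, which exports cholesterol from lysosomes, in intron 1, were higher in BALB/cJ than in C57BL/6J (log2 1.48 and 1.10, adjusted p = 0.00451 and 0.00799).

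Of 20 genes of the other desaturases, elongases and their partners, 16 had a window and 9 a tested one. Of their 50 tested windows, 8, at 5 genes, were higher in C57BL/6J than in A/J and 0 were lower, where 3.93% of all windows were called in that direction. In either other comparison 0 were called by edgeR, with 4 and 12 at an unadjusted p under 0.05 (with the block 0 and 1 between A/J and BALB/cJ, and 0 and 4 between BALB/cJ and C57BL/6J, the latter higher in C57BL/6J). The medians of this list were -0.24, -0.32 and -0.23 in the 3 comparisons. *Elovl1*, an elongase of saturated and monounsaturated very long chains, held 13.1 ± 6.76 in A/J and 42.7 ± 2.29 in C57BL/6J at -2435 bp (log2 -1.93, SE 0.38, adjusted p = 0.00115 from edgeR), and *Hacd4*, a dehydratase of the elongation cycle, 20.2 ± 5.21 and 63.6 ± 27.5 at 2059 bp (log2 -1.63, SE 0.35, adjusted p = 0.00242). Their counts were highest in C57BL/6J, where *Fads1* was lowest.

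Of 12 genes of fatty acid synthesis and activation, 12 had a window and 9 a tested one. Of their 36 tested windows (medians -0.03, -0.10 and 0.01), 3 were higher in BALB/cJ than in A/J, 1 was higher in A/J than in C57BL/6J, and 3 were higher and 1 lower in BALB/cJ than in C57BL/6J. The shares called were 8.33%, 2.78% and 11.1%, against 3.63%, 7.09% and 8.56% of all windows. *Acss2*, which makes acetyl-CoA from acetate, had a BALB/cJ level of 83.1 ± 21.0 in intron 2 at 16216 bp, against 5.48 ± 1.43 for A/J and 5.39 ± 2.49 for C57BL/6J (log2 -3.96 for A/J over BALB/cJ and 4.17 for BALB/cJ over C57BL/6J, adjusted p = 3.86e-07 and 1.38e-07 from edgeR). *Acacb*, an acetyl-CoA carboxylase, was also highest in BALB/cJ at 10276 bp in intron 1, with 54.7 ± 20.0 against 11.6 ± 2.67 and 2.32 ± 1.68. *Acsl1*, a long-chain acyl-CoA synthetase, was lower in BALB/cJ than in C57BL/6J at -38587 bp (log2 -1.29, SE 0.42, adjusted p = 0.047).

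The genes whose start-site windows were most like those of the members across the 9 libraries were found by Pearson's r of log2 counts among 9684 genes, as a description of libraries that share depth and replicate structure. For *Fads1* these were *Fam98c* (0.96), *Mmp13* (0.95) and *Mir7045* (0.95). For *Hmgcs1* they were *Eaf2* (0.98), *Sec61g* and *Alg12* (0.96 each), for *Insig1* *Smyd3* (0.97), *Stxbp2* and *Wdfy4* (0.96 each), for *Srebf2* *Nup54*, *Cib1* and *Pfdn4* (0.96 each), and for *Elovl5* *Pcyt1a* (0.98), *Zscan22* (0.95) and *Smpd2* (0.94). None of the other 6 genes was among the 3 most like any member.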

How the data were processed

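H3K27ac ChIP–seq and input reads of sorted Kupffer cells were mapped by the authors with Bowtie2 to the genome of each strain (mm10, or mm10 with the variants of A/J or BALB/cJ) and shifted to mm10 with MMARGE. Mapping to the strain's own genome limits the loss of reads that carry a variant. The authors deposited counts of raw tags from HOMER, without normalization, in 1000 bp windows centred on ATAC-seq peaks. Replicate 2 of each strain, the inputs and the F1 columns were deposited as estimated counts in steps of 0.5, which were rounded to whole numbers here, and how the steps arose is not given in the sources used here. F1 counts are perfectly mapped reads that span a variant, in regions of 200 bp in the deposited table although the methods state a larger size. The submitters' processing notes name FastQC, Bowtie2, HOMER, DESeq2 and mm10, and tool versions are not given in the sources used here. Inputs of the F1 were not used here.

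Columns of 9 parental H3K27ac libraries, 7 inputs and 3 F1 animals with 6 allelic columns were assigned by name to the samples. Separate mice are taken as the labels number them, and p-values measure the spread between these libraries. The 9 parental libraries entered 1 quasi-likelihood fit in edgeR 4.0.16 (R 4.3.3, robust, strain as the sole term, TMM), on 60387 windows with a mean normalised count over 16. Normalised counts are counts over the effective library size times the mean effective size. P-values were adjusted by Benjamini-Hochberg over all features tested, and a window was called at an adjusted p under 0.05 and more than 2-fold. The SE is the log2 fold change over the square root of F. Gene sums used windows that do not overlap. Alleles were fitted in the same way on autosomes, F1 regions were summed into the parental window that holds their midpoint for the test of strain against allele differences, and sums of F1 regions per gene were added after seeing the data. The biological coefficient of variation was 0.214 in windows and 0.314 in F1 regions. Alternatives were DESeq2 1.42.0 as test and as size factors, library totals alone, no filter, the compared strains alone, each library left out, and a replicate block. The scripts were tested on simulated data.

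Replicate numbers were checked as pairs. After removal of strain means, libraries of the same number correlated at 0.227 to 0.414, and 9 of 9 correlated best with their own number, so the pairing comes from the data. In the F1 both alleles come from the same animal (0.168 to 0.182).

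The text names, for each gene, the window nearest the start site, the window of lowest p, every window past the test and the F1 region with the most reads, with 1 exception. For each list it names up to 3 called windows per comparison and direction. The genes, lists and tests were chosen with earlier results of these data known. The other F1 regions named, those with equal counts on both alleles and the windows beside *Fads1* were singled out after their values were seen. Sequences come from RefSeq (GRCm38.p6). Plots were drawn with matplotlib 3.10.9. A window of 1 listed gene and 1 of the 4 *Fads1* regions with allelic reads, the one with the most reads, are not reported here on their own, and the latter is part of the *Fads1* allelic sum.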

Additional observations from a re-analysis of the deposited data

How the results depend on the processing

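Of the counts of calls, 167 recomputed under other settings stayed within 1.5 times the reported count and 13 did not. The replicate block, with replicate numbers as pairs, raised the windows with an adjusted p under 0.05 from 0 to 2 between A/J and BALB/cJ and from 3 to 5 between A/J and C57BL/6J, and it changed no other count by more than 1.5 times. It also brought the *Insig1* sum (-0.33, adjusted p = 0.0272) and *Elovl5* at 1948 bp (1.15, adjusted p = 0.0488) past the threshold. With 1 library left out at a time, 1 to 3 windows were called between A/J and C57BL/6J (1 to 3 at any size) and 1 to 4 between BALB/cJ and C57BL/6J (1 to 5 at any size), and 0 to 1 genes were called on summed windows in each of these comparisons. With library totals alone, 1 gene, *Fads1*, was called between A/J and C57BL/6J in place of 0. The *Fads1* promoter window lost its call against C57BL/6J without the 3 replicate 2 libraries for A/J (0.87, adjusted p = 0.0652) and with library totals (1.11, adjusted p = 0.0588), and ranged from 0.81 to 1.25 for A/J and 0.93 to 1.34 for BALB/cJ with 1 library left out (adjusted p = 0.0229 to 0.204 and 0.00753 to 0.113). At 625 bp it was lost without C57BL/6J replicate 3 (1.09 and 1.16, adjusted p = 0.12 and 0.0716). Signs turned only for values near 0: the *Elovl5* promoter for A/J over C57BL/6J (-0.06 to 0.22 with 1 library left out), the *Srebf2* sum for A/J over C57BL/6J (-0.41 to 0.02), the *Elovl5* sum for A/J over BALB/cJ (-0.18 to 0.01) and the *Elovl5* allelic sum (-0.11 without replicate 3). The cause was not tested. Depth limits the allelic values, since 0 of the 19 regions of these genes reached the filter. Fractional F1 counts were rounded, and overlapping windows share reads.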

Other observations

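Equal counts on both alleles in all 3 animals were seen at 2 of the 9 regions of these genes with at least 20 allelic reads, *Fads1* at -9180 bp (0.0, 13.5 and 10.0 on each allele) and *Elovl5* at 6576 bp (4.5, 5.0 and 2.0 on each allele), and at 225 of 14862 such regions overall (1.51%). These regions were singled out after their values were seen, and how such counts arose was not tested.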
